A study of Homo sapiens with 28 samples.

Results

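ABCC1, ABCC2, ABCC3, ABCC4, ABCC5, ABCC10, ABCB1 and ABCG2 encode ATP-driven pumps of the plasma membrane that carry conjugated and lipophilic compounds out of the cell. They were chosen by symbol, as 8 rows of the 60286 in the deposited count tables, and all 8 were found. The libraries are total RNA of HT-1080, an established human fibrosarcoma line labelled wild type, in 4 replicates per group that the series text calls independent. All agents were left on overnight. The groups were 5 µM CLA18:3 (a conjugated fatty acid with a further double bond), 10 nM RSL3 with 80 µM CLA18:2 (conjugated linoleic acid), 80 µM CLA18:2, 10 nM RSL3 with 80 µM LA (linoleic acid), 80 µM LA, 10 nM RSL3 and the vehicle DMSO. RSL3 inhibits GPX4, the enzyme that reduces lipid hydroperoxides, and so brings on ferroptosis. LA and CLA18:2 are isomers that differ in the placing of their double bonds: those of CLA18:2 are conjugated, while those of LA have a methylene group between them. The series title names the question of how distinct peroxidation mechanisms contribute to ferroptosis.

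Electrophiles and peroxidation products are commonly disposed of in steps. Glutathione S-transferases join them to glutathione, and exporters of the ABCC family then carry the conjugate out, together with glucuronides, sulphates and, for some members, glutathione itself. Several exporter genes are known targets of NRF2, the transcription factor that is released from KEAP1 by electrophiles. ABCB1 (P-glycoprotein) and ABCG2 (breast cancer resistance protein) are the other main drug efflux pumps and move mostly unconjugated or sulphated compounds.

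In the counts as listed, 3 of the 8 transcripts stood clearly above the rest in HT-1080 cells, though the level of ABCC1 is uncertain, for reasons given below. Levels between genes are compared as CPM, the counts of a gene scaled to a common library total, per kilobase of exon (CPM per kb) in the DMSO libraries. ABCC5, which exports cyclic nucleotides and folates, was first at 4.49 ± 0.107 CPM per kb (SD, n = 4). ABCC4, an exporter of cyclic AMP, prostaglandins and urate, followed at 3.81 ± 0.252, and ABCC10, a pump for glucuronides and taxanes, at 3.44 ± 0.272. The lowest ABCC5 library (4.34) lay above the highest ABCC4 library (4.13), while ABCC4 and ABCC10 overlapped (3.56 to 4.13 and 3.16 to 3.80). ABCC3, an exporter of glucuronides and bile salts, had 0.669 ± 0.0419 CPM per kb. ABCC1, the classic exporter of leukotriene C4 and other glutathione conjugates, was listed at 0.582 ± 0.254, and ABCG2 at 0.457 ± 0.0961. The ABCC1 libraries ran from 0.342 to 0.853 and overlapped both of the others, while ABCC3 (0.635 to 0.728) lay above ABCG2 (0.315 to 0.519). ABCC2, the apical exporter of glutathione and bilirubin conjugates in liver, was lower than all of them at 0.136 ± 0.0198 CPM per kb. ABCB1 had 0.0148 CPM per kb in 1 DMSO library and no count in the other 3.

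**Figure D1:**
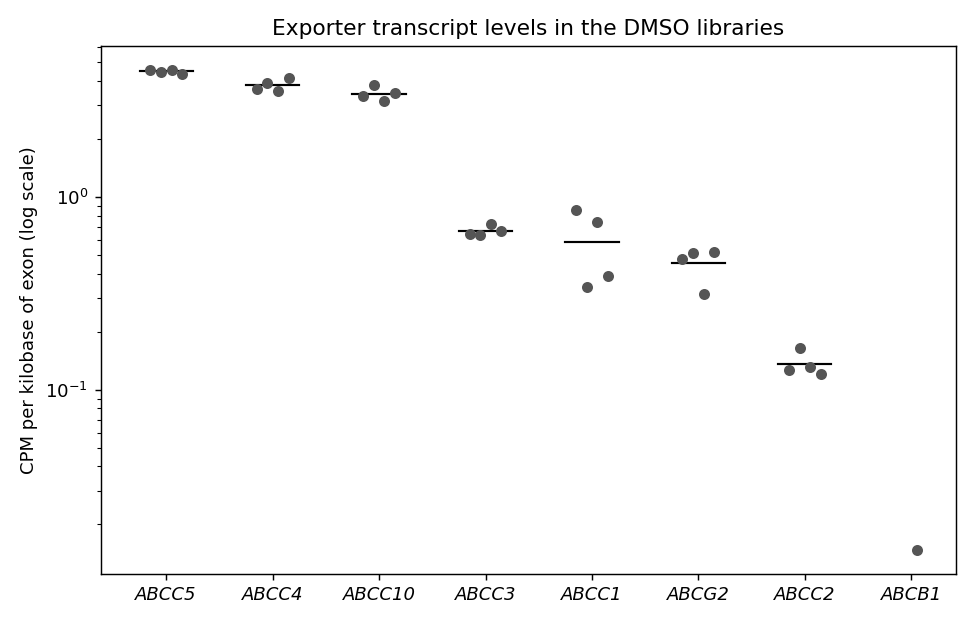
Level of each exporter transcript in the DMSO libraries, in CPM per kilobase of annotated exon on a log axis. Points are libraries and lines are means of 4. ABCC5, ABCC4 and ABCC10 lie between 3.16 and 4.57 and the others below 1, where the ABCC1 level is uncertain. For ABCB1 only the library with a count can be drawn.

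ABCB1 was too low to test. It collected 31 counts over the 28 libraries, and 20 libraries had none. The highest library, replicate 3 of RSL3+CLA18:2, had 11 counts, and the CLA18:3 libraries had 0, 0, 4 and 6. It also overlaps RUNDC3B on the opposite strand, and the counting is not stated to use strand. The other 7 members passed the filter on low counts and entered the tests.

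ABCC1 passed the filter, but its values varied more than those of most genes of like level. Its counts ran from 16 to 205, with a within-group SD of 0.623 on the log2 scale, at percentile 98.8 of 1232 tested genes of like level, whose median was 0.246. The gene lies at chr16:15949577-16143074 (GRCh38, plus strand). Of its protein-coding neighbours within 500 kb, all named after their values were seen, CEP20 had 52 to 318 counts per library, NOMO3 6 to 144 and MARF1 5 to 84. NDE1 had at most 10, MYH11 at most 1 and ABCC6 0 in any library. TAP1 and TAP2, the peptide transporter of antigen presentation on another chromosome, were listed at or near 0, with at most 0 and 2 counts. How the authors treated reads that match several places is not given in the sources used here, and the part of this in the ABCC1 values was not tested. The ABCC1 values are therefore given as listed and should be taken as uncertain.

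For 6 members the sequence before a transcription start was at hand (RefSeq, GRCh38.p14, 12 windows of 250 bases); ABCC1 and ABCC3 had no entry. Both strands were searched for TGACNNNGC, the core of the antioxidant response element through which NRF2 acts, and for GGGCGG, the GC box. TGACNNNGC was found in ABCC4, on the minus strand of the window 149 bases before the start, and in 1 of the 2 ABCC10 windows, 143 bases before the start. Over the genome, 10.9% of 35116 such windows hold it, and 42.6% hold the GC box. The GC box occurred once in ABCC5, 3 times in the other ABCC10 window and 2 times in ABCG2, where 2 overlapping windows hold the same sites. The ABCB1 and ABCC2 windows held neither. Of 14 NRF2 regulators and targets, 11 had a window, and 4 of these held TGACNNNGC, where 13.2% of 27305 genes hold it in at least 1 window. The 3 stretches that follow belong to ABCC2 and ABCC5, which were higher with CLA18:2, and ABCC4, which was not. ABCC10, with TGACNNNGC in 1 of its 2 windows, was also higher with CLA18:2 and is not printed. No link between motif and response was tested. The stretches are cut where the annotated gene begins, and capitals mark a match of either motif on either strand. They are ABCC2 at chr10:99782390-99782639 (plus strand), ABCC4 at chr13:95301476-95301701 (minus strand) and ABCC5 at chr3:184018016-184018134 (minus strand).
ABCC2: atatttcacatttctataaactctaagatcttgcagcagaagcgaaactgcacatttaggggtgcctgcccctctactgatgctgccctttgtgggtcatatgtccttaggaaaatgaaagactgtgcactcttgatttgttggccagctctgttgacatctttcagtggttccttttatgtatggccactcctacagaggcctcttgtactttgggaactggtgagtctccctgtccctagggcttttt
ABCC4: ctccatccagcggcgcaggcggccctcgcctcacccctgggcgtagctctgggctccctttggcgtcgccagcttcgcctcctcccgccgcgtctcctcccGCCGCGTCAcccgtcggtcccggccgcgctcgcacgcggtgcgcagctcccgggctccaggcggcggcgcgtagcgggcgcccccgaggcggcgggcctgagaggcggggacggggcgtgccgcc
ABCC5: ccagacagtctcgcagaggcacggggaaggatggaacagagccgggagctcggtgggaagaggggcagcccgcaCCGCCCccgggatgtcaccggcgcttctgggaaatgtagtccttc
The ABCC4 stretch holds 1 TGACNNNGC match and the ABCC5 stretch 1 GC box, both read on the other strand, and the ABCC2 stretch holds none. A match describes letters only, and no binding was measured.

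Library totals ran from 16226270 to 24286824 counts, and 16325 genes were tested. The mesenchymal markers were present in all groups (10 of 10 passed the filter, summed level 12600 to 15000 CPM), EPCAM and CDH1 were near 0, and none of 6 blood markers passed. Of 9 epithelial markers 3 passed, mainly the keratins KRT8 and KRT18, and their summed level was 552 to 614 CPM with CLA18:2 and 834 to 900 CPM with DMSO. Mitochondrial mRNAs made 0.356 to 1.64% of counts in CLA18:3 libraries, 0.263 to 1.68% in RSL3+CLA18:2, 0.312 to 1.48% in CLA18:2, 1.46 to 1.93% in RSL3+LA, 0.451 to 1.44% in LA, 0.548 to 1.5% in RSL3 and 1.26 to 1.49% in DMSO libraries, so that this share varied within most treated groups. At a common total of 16226270 counts, 18645 to 20454 genes were detected with CLA18:3, 18961 to 21298 with RSL3+CLA18:2, 21552 to 22185 with CLA18:2, 20813 to 22433 with RSL3+LA, 21217 to 22596 with LA, 21984 to 22509 with RSL3 and 22646 to 22896 with DMSO. Every treated library lay below every DMSO library in this number. The part of these measures in the results below was not tested. In bulk RNA, fewer cells of a kind and less RNA per cell cannot be told apart. The sample numbers of the LA and CLA18:2 libraries stand apart from those of the other groups. The labels do not say whether these libraries were also made apart. Where LA or CLA18:2 alone is set against a group with DMSO or RSL3, such a difference cannot be told apart from treatment.

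Of the treatments, CLA18:2 gave the most calls among the exporters and RSL3 alone gave none. CPM values, also those above, are scaled by TMM factors, which correct library totals for a few very abundant genes. Fold changes are log2 ± SE from edgeR's quasi-likelihood test, with Benjamini-Hochberg adjustment over all 16325 genes and 4 libraries per group. CLA18:2 against DMSO called 4 of 7 tested members, all higher (ABCC2, ABCC3, ABCC5 and ABCC10), where 38.8% of all tested genes were called. RSL3+CLA18:2 called 2 of 7, both higher, with a background of 35.2%, and CLA18:3 called 2 of 7, 1 higher and 1 lower, with 35.9%. LA and RSL3+LA called 1 of 7 each, ABCC3, with backgrounds of 8.32% and 10.2%. RSL3 called 0 of 7 with edgeR and limma-voom and 0 of the 6 to which DESeq2 gave an adjusted p, and 1 of 7 had an unadjusted p under 0.05 with edgeR, where 0.202% of all genes were called (33 genes, against 989 at an unadjusted p under 0.05). For the conjugated acids these shares are near the background, and 7 genes are few. The median log2 fold change of the members was 0.36 with CLA18:2, against -0.02 over all tested genes, and 0.23 with RSL3+CLA18:2, against -0.02. It was 0.11 with CLA18:3 (all genes 0), 0.07 with LA (0), 0.06 with RSL3+LA (0.01) and 0.11 with RSL3 (0.01).

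ABCC3 was higher with every fatty acid treatment. ABCC3 (chr17:50634777-50692252, plus strand) had 10.8, 11.3, 8.97 and 5.54 CPM with CLA18:3. It had 10.5, 10.4, 12.2 and 15.2 CPM with RSL3+CLA18:2 and 10.3, 10.7, 9.98 and 10.1 CPM with CLA18:2. Every library with CLA18:2, with or without RSL3, had 9.98 CPM or more, while 1 CLA18:3 library lay below all DMSO libraries. ABCC3 had 16.3, 15.4, 14.1 and 12.2 CPM with RSL3+LA and 13, 12.8, 10.5 and 11.0 CPM with LA. The RSL3 libraries had 6.48, 5.93, 7.74 and 7.69 CPM, against 6.20, 6.10, 7 and 6.41 CPM with DMSO. Every library of the 4 groups with LA or CLA18:2 lay above every RSL3 and DMSO library.

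Against DMSO, ABCC3 was 2.25-fold higher with RSL3+LA (1.17 ± 0.15, adjusted p = 8.3e-07), 1.89-fold with RSL3+CLA18:2 (0.92 ± 0.15, adjusted p = 1.2e-05) and 1.83-fold with LA (0.87 ± 0.15, adjusted p = 1.4e-04). With CLA18:2 it was 1.60-fold higher (0.68 ± 0.16, adjusted p = 6.3e-04). With CLA18:3 the fold was 1.42 (0.51 ± 0.16, adjusted p = 0.0109), and this call was lost without CLA18:3 replicate 1 (adjusted p = 0.0534) or replicate 2 (adjusted p = 0.0712). With RSL3 alone the difference was 0.11, with a 95% interval of -0.21 to 0.44. ABCC3 was the only member past the threshold in both LA and CLA18:2 cultures, and these comparisons share the DMSO libraries.

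ABCC2 differed between the isomers. ABCC2 (chr10:99782640-99852594, plus strand), whose promoter stretch is printed above, had 2.10, 2.31, 1.59 and 1.75 CPM with CLA18:2, against 0.410, 0.735, 0.697 and 0.651 CPM with LA. The CLA18:2 libraries all lay well above the LA libraries. With RSL3 present it had 1.84, 1.72, 1.14 and 2.56 CPM with RSL3+CLA18:2, against 1.10, 0.493, 0.869 and 0.658 CPM with RSL3+LA. Again the groups did not overlap, though by little. ABCC2 had 0.782, 1.26, 2.61 and 1.59 CPM with CLA18:3, 1.39, 0.603, 0.732 and 0.812 CPM with RSL3, and 0.998, 1.29, 1.03 and 0.948 CPM with DMSO. These are low levels: ABCC2 had 8 to 57 counts per library, so counting error is part of each value.

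Against DMSO, ABCC2 was 1.81-fold higher with CLA18:2 (0.86 ± 0.34, adjusted p = 0.0456). This call stands at the threshold. It held without DMSO replicate 2 or CLA18:2 replicate 3 and was lost without any other of the 8 libraries (0.76 to 0.97 over the 8 fits, adjusted p up to 0.117), with DESeq2 (adjusted p = 0.0535) and with no filter on low counts (adjusted p = 0.174). With RSL3+CLA18:2 the difference was 0.76 ± 0.34 and missed the threshold (adjusted p = 0.0837), but passed it without RSL3+CLA18:2 replicate 3 (adjusted p = 0.0398). With LA the estimate was negative, -0.77 ± 0.37, and missed the threshold (adjusted p = 0.257). All 4 LA libraries were below all 4 DMSO libraries in CPM, but on 8 to 17 counts against 17 to 28. With RSL3+LA the estimate was -0.46 ± 0.36 and with RSL3 -0.29 ± 0.36, neither past the threshold.

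ABCC5 responded to CLA18:2 and to a lesser degree to RSL3+CLA18:2. ABCC5 (chr3:183919934-184018015, minus strand) had 56.0, 58.1, 67.3 and 59.3 CPM with RSL3+CLA18:2 and 71.9, 85.6, 70.8 and 70.1 CPM with CLA18:2, against 52.3, 51.3, 52.1 and 49.6 CPM with DMSO. Both groups lay wholly above the DMSO libraries, and the CLA18:2 libraries wholly above those of the combination. ABCC5 had 51.9, 52.5, 57.5 and 60.1 CPM with CLA18:3, 59.7, 52.6, 55.4 and 46.5 CPM with RSL3+LA, 56.6, 54.6, 47.8 and 48.0 CPM with LA, and 57.4, 55.8, 48.1 and 43.8 CPM with RSL3. These 4 groups overlapped the DMSO libraries. Against DMSO the fold was 1.45 with CLA18:2 (0.54 ± 0.08, adjusted p = 1.8e-06) and 1.17 with RSL3+CLA18:2 (0.23 ± 0.08, adjusted p = 0.0294). The smaller call was lost without DMSO replicate 2, 3 or 4 or without RSL3+CLA18:2 replicate 3 (adjusted p = 0.0611, 0.0552, 0.0766 and 0.128). The antisense gene ABCC5-AS1, which overlaps ABCC5, had 0 to 5 counts per library.

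ABCC10 was also higher with CLA18:2, by less. ABCC10 (chr6:43427366-43450430, plus strand) had 35.6, 36.6, 35.9 and 28.4 CPM with CLA18:2, against 26.9, 30.7, 25.5 and 28 CPM with DMSO. Of the CLA18:2 libraries, 3 lay above all DMSO libraries and replicate 4 lay among them. The fold was 1.23 (0.29 ± 0.10, adjusted p = 0.0137), and the call was lost without DMSO replicate 3 (adjusted p = 0.0570) or CLA18:2 replicate 2 (adjusted p = 0.0519). In the other groups ABCC10 averaged 24.5 ± 2.42 CPM with CLA18:3, 26.3 ± 2.77 with RSL3+CLA18:2, 29.2 ± 3.16 with RSL3+LA, 29.2 ± 3.37 with LA and 27.4 ± 1.66 with RSL3, against 27.8 ± 2.20 with DMSO (SD, n = 4 each), and none of these passed the threshold. DLK2 overlaps it on the opposite strand, with 37 to 77 counts per library.

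ABCC4 moved little and, where called, downward. ABCC4 (chr13:95019829-95301475, minus strand) had 30.6, 26.2, 31.4 and 26.8 CPM with CLA18:3, against 31.6, 33.7, 30.7 and 35.6 CPM with DMSO. The groups overlapped, and the difference was -0.20 ± 0.07 (adjusted p = 0.0384), lost when DMSO replicate 2 or 4 or CLA18:3 replicate 2 or 4 was left out (adjusted p = 0.0588, 0.0997, 0.103 and 0.0864). With RSL3 it had 33.0, 35.8, 39.7 and 38.9 CPM, the highest group mean, at 0.16 ± 0.07 against DMSO (adjusted p = 0.765). LA, CLA18:2 and both combinations averaged 31.0 to 33.8 CPM, with differences from DMSO between -0.09 and 0.04.

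ABCG2 and ABCC1 passed no test against DMSO with all libraries. ABCG2 (chr4:88090264-88231322, minus strand) averaged 2.83 ± 1.76 CPM with CLA18:3, 2.70 ± 0.462 with RSL3+CLA18:2, 2.59 ± 0.678 with CLA18:2, 2.35 ± 0.396 with RSL3+LA, 3.18 ± 0.739 with LA and 2.61 ± 0.431 with RSL3, against 2.30 ± 0.485 with DMSO (SD, n = 4 each). Its CLA18:3 libraries spread widely, at 4.84, 3.00, 2.94 and 0.545 CPM, and without the lowest, replicate 4, the difference from DMSO was 0.63 (adjusted p = 0.0465). The intervals were about as wide as for ABCC2, -0.50 to 0.84 for CLA18:2 against DMSO, so changes of moderate size were not detectable. ABCC1 had 3.18, 0.775, 1.58 and 5.00 CPM with CLA18:3, against 6.46, 2.59, 5.63 and 2.95 CPM with DMSO, a difference of -0.73 ± 0.42 (adjusted p = 0.187). Without CLA18:3 replicate 4 the same difference was -1.27 (adjusted p = 0.0308), and with no filter on low counts it was -0.77 (adjusted p = 0.00309). Its other group means lay between 4.71 and 6.28 CPM.

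**Figure D2:**
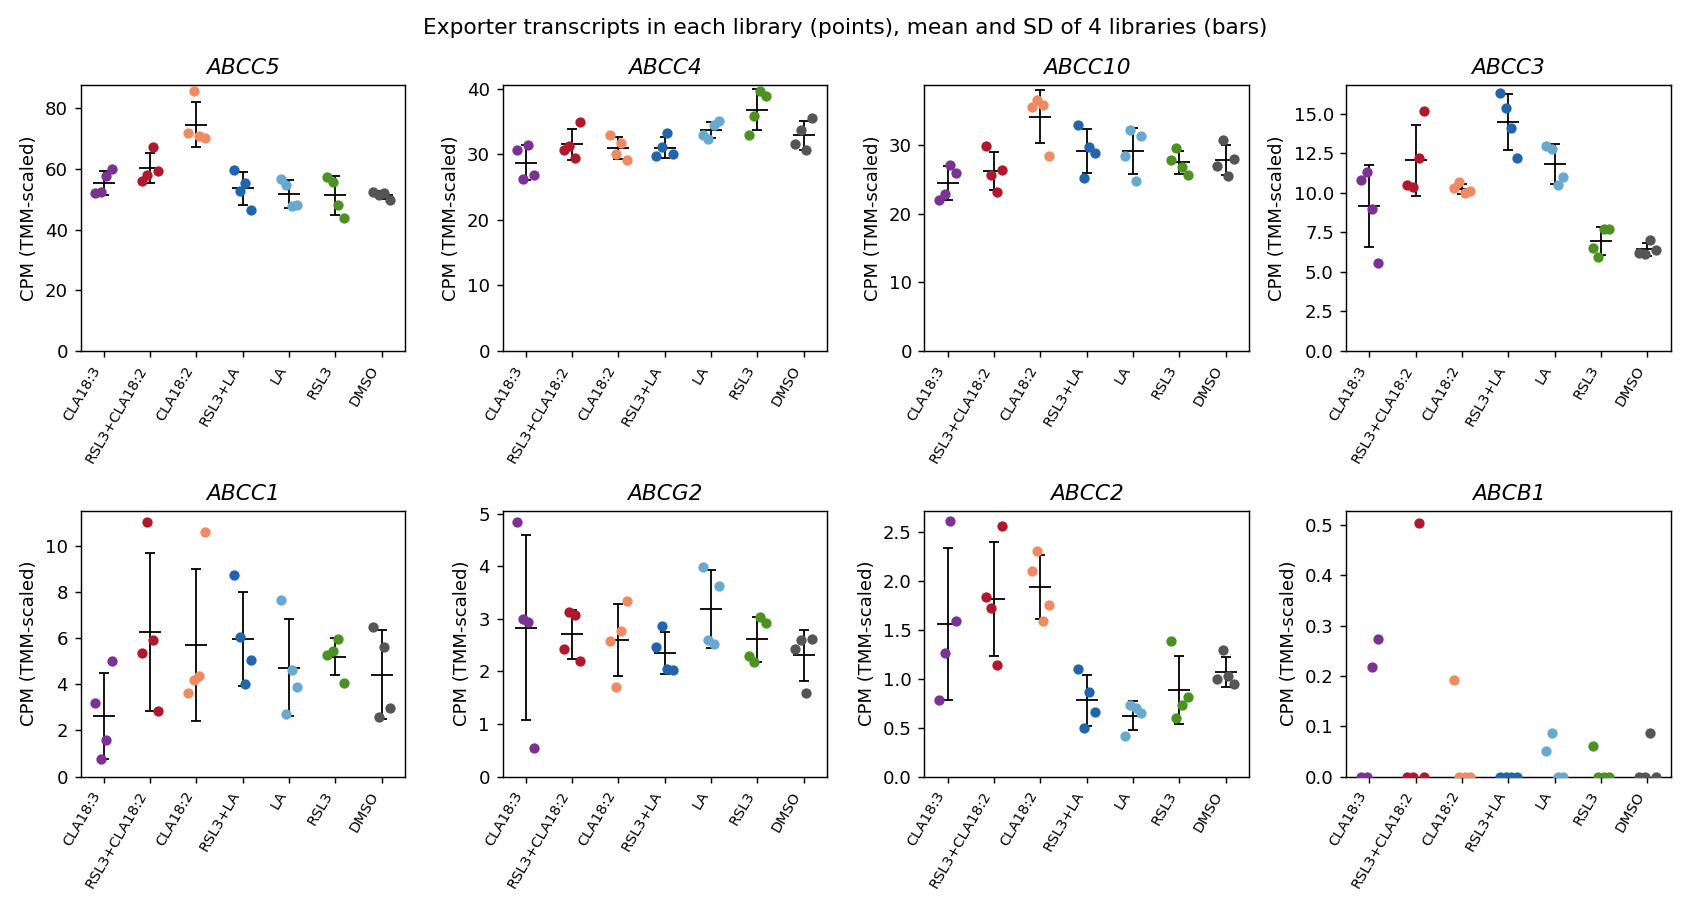
CPM of each exporter (TMM-scaled, vertical axis from 0) in all libraries of the 7 groups, with the mean and SD of 4 libraries as bars (none for ABCB1). ABCC3 is high in all groups with LA or CLA18:2, ABCC5 in the CLA18:2 libraries at 70.1 to 85.6 CPM, and ABCC2 in both groups with CLA18:2.

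**Figure D3:**
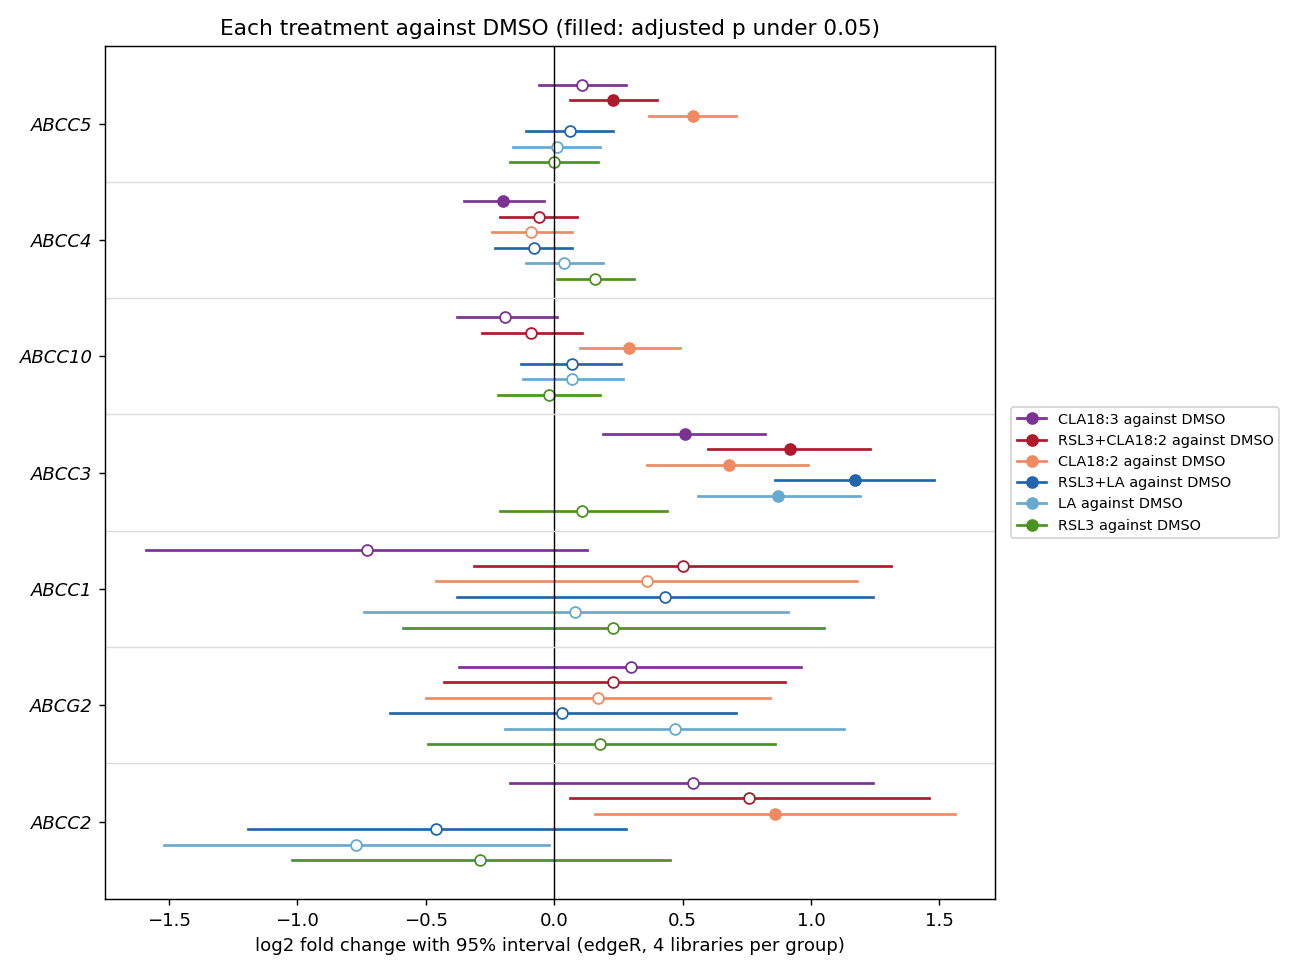
Log2 fold change of each tested exporter in 6 treatments against DMSO, with 95% intervals; filled points passed an adjusted p of 0.05. ABCC3 is filled for all 5 treatments with a fatty acid and lies at 1.17 with RSL3+LA, while the intervals of ABCC1, ABCG2 and ABCC2 are wide.

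The isomers were compared at the same dose in 2 pairs, without and with RSL3. CLA18:2 against LA called 2 of 7 members, with a background of 30.2%. ABCC2 was 3.09-fold higher with CLA18:2 than with LA (1.63 ± 0.36, 95% interval 0.90 to 2.36, adjusted p = 5.1e-04), and ABCC5 1.44-fold higher (0.53 ± 0.08, adjusted p = 3.9e-06). Both calls held in all 8 fits that left out 1 library. ABCC10 missed the threshold (0.22 ± 0.10, adjusted p = 0.0794), and passed it without CLA18:2 replicate 4 (adjusted p = 0.0148) or LA replicate 2 (adjusted p = 0.0403). ABCC3, which both acids raised, differed by -0.20 with an interval of -0.50 to 0.11, ABCC4 by -0.12 (-0.27 to 0.03) and ABCG2 by -0.30 (-0.96 to 0.36).

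With RSL3 present in both cultures, RSL3+CLA18:2 against RSL3+LA called 1 of 7 members, with a background of 26.1%. ABCC2 was again higher, 2.33-fold (1.22 ± 0.35, interval 0.50 to 1.94, adjusted p = 0.00954). ABCC5 differed by 0.17, with an interval of 0.00 to 0.34 (adjusted p = 0.140). ABCC3 differed by -0.26 (-0.55 to 0.04) and ABCC10 by -0.15 (-0.35 to 0.04). CLA18:3 was given at 5 µM and CLA18:2 at 80 µM, so they are only set side by side. Against DMSO ABCC2 stood at 0.54 with CLA18:3 and 0.86 with CLA18:2, ABCC3 at 0.51 and 0.68, ABCC5 at 0.11 and 0.54, and ABCC10 at -0.19 and 0.29.

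**Figure D4:**
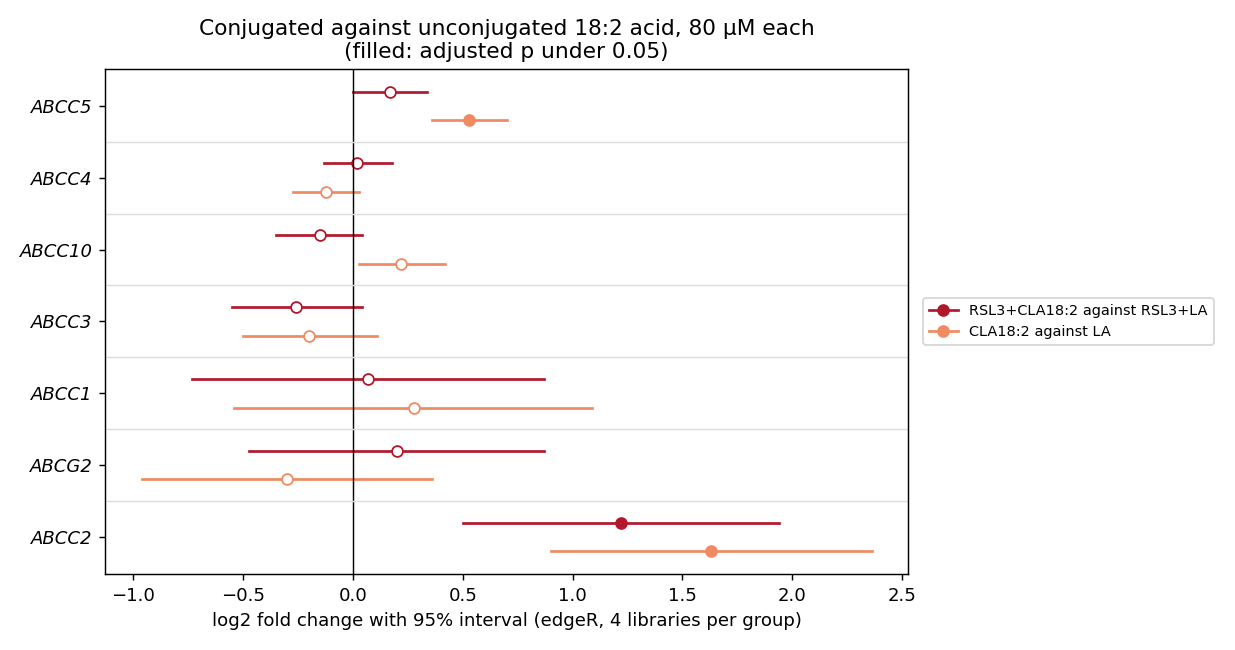
Log2 fold change of the conjugated over the unconjugated 18:2 acid at 80 µM, with RSL3 (upper point of each pair) and without it (lower point), with 95% intervals; filled points passed an adjusted p of 0.05. ABCC2 is filled in both pairs, at 1.22 and 1.63, and ABCC5 in the pair without RSL3.

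ABCC10 and ABCC5 were lower in RSL3+CLA18:2 than in CLA18:2 alone, groups whose sample numbers stand apart. RSL3+CLA18:2 against CLA18:2 called 2 of 7 members, both lower, with a background of 11.9%. ABCC10 had 29.9, 25.7, 23.2 and 26.3 CPM with RSL3+CLA18:2, against 35.6, 36.6, 35.9 and 28.4 CPM with CLA18:2, a fall to 0.769-fold (-0.38 ± 0.10, adjusted p = 0.00709). The groups overlapped through CLA18:2 replicate 4. ABCC5 fell to 0.806-fold (-0.31 ± 0.08, adjusted p = 0.00969), with all 4 libraries of the combination below all 4 with CLA18:2, and this call was lost without CLA18:2 replicate 2 (adjusted p = 0.0763). ABCC2 (-0.10, interval -0.77 to 0.58) and ABCC3 (0.24, interval -0.06 to 0.54) did not pass. RSL3+LA against LA called 0 of 7 with edgeR and limma-voom and 0 of the 5 to which DESeq2 gave an adjusted p, and 0 had an unadjusted p under 0.05 with edgeR, with a background of 0.0490%. ABCC3 came nearest there, at 0.30 ± 0.15 (adjusted p = 0.704).

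Whether RSL3 acted differently in the presence of a fatty acid was tested directly as an interaction. RSL3 by CLA18:2 called 0 of 7 members (background 3.55%), and so did RSL3 by LA (background 0.0245%), with edgeR and with limma-voom. DESeq2 called 0 of the 5 members to which it gave an adjusted p in RSL3 by CLA18:2, and gave none an adjusted p in RSL3 by LA. In RSL3 by CLA18:2, ABCC5 stood at -0.31 ± 0.12 and ABCC10 at -0.36 ± 0.14 (adjusted p = 0.160 for each), the only 2 members with an unadjusted p under 0.05. In RSL3 by LA the only such member was ABCC4, at -0.29 ± 0.10 (adjusted p = 0.612). A different response of ABCC5 and ABCC10 to RSL3 in CLA18:2 and in vehicle is therefore not shown by these 4 libraries per group.

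**Figure D5:**
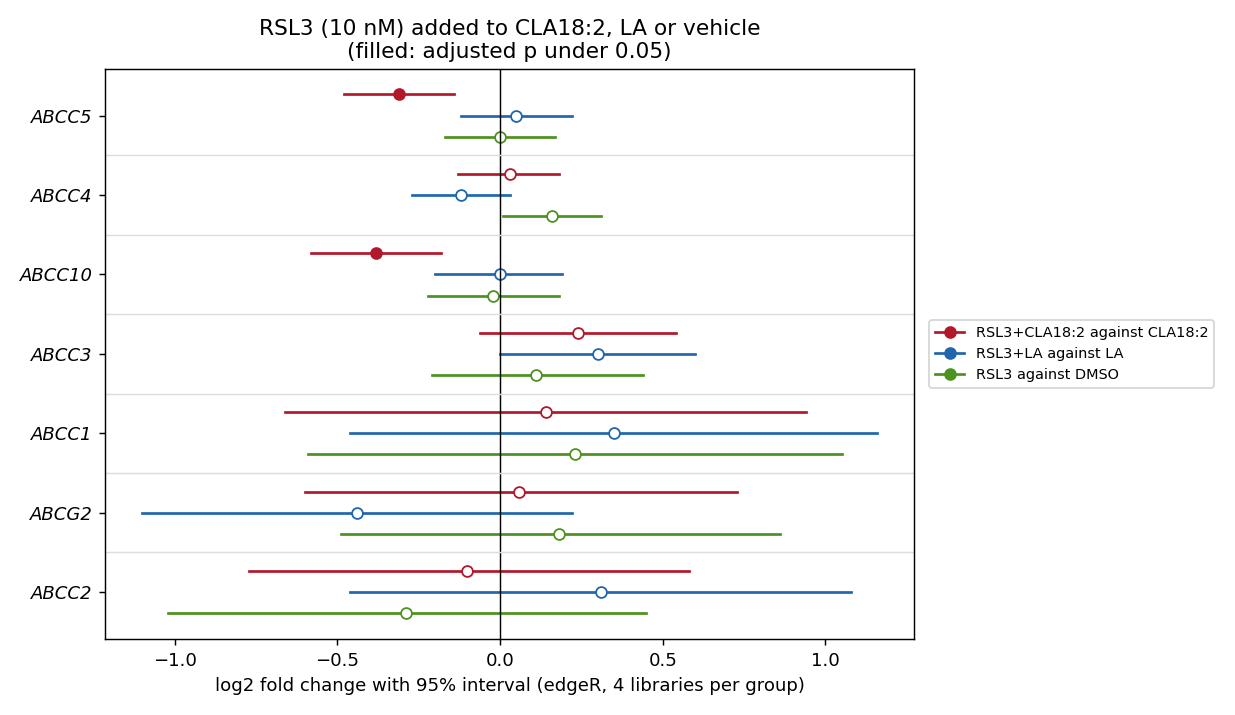
Log2 fold change on adding 10 nM RSL3 to CLA18:2, to LA or to vehicle, from top to bottom within each gene, with 95% intervals; filled points passed an adjusted p of 0.05. Only ABCC5 and ABCC10 in CLA18:2 are filled, at -0.31 and -0.38.

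Set against RSL3 alone, both combinations were higher in ABCC3 and lower in ABCC4, and RSL3+CLA18:2 was also higher in ABCC2 and ABCC5. RSL3+CLA18:2 against RSL3 called 4 of 7, with a background of 30.4%, and RSL3+LA against RSL3 called 2 of 7, with 9.58%. ABCC3 was 2.08-fold higher with RSL3+LA (1.06 ± 0.15, adjusted p = 6.2e-06) and 1.75-fold higher with RSL3+CLA18:2 (0.80 ± 0.15, adjusted p = 1.0e-04) than with RSL3. ABCC2 was 2.07-fold higher with RSL3+CLA18:2 (1.05 ± 0.35, adjusted p = 0.0211) and ABCC5 1.17-fold (0.23 ± 0.08, adjusted p = 0.0325). ABCC4 had 30.6, 31.3, 29.4 and 34.9 CPM with RSL3+CLA18:2 and 29.7, 31.1, 33.2 and 30.1 CPM with RSL3+LA, against 33.0, 35.8, 39.7 and 38.9 CPM with RSL3. It was lower in both combinations, by -0.22 ± 0.07 (adjusted p = 0.0190) and -0.25 ± 0.07 (adjusted p = 0.0270). Both comparisons share the RSL3 libraries, the group with the highest ABCC4 mean, so they are not independent. Against DMSO, ABCC4 stood at -0.06 with RSL3+CLA18:2 and -0.08 with RSL3+LA, neither past the threshold. The ABCC3 calls held whichever library was left out. Against RSL3, the ABCC4 call in RSL3+LA was lost without RSL3 replicate 3 or 4 or RSL3+LA replicate 1, 2 or 4 (adjusted p up to 0.139). In RSL3+CLA18:2 the ABCC2 call was lost without RSL3 replicate 2 or 3 or RSL3+CLA18:2 replicate 4 (up to 0.0918), the ABCC4 call without RSL3 replicate 3 or 4 or RSL3+CLA18:2 replicate 1 or 3 (up to 0.102), and the ABCC5 call without RSL3 replicate 3 or 4 or RSL3+CLA18:2 replicate 3 (up to 0.136).

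The relatives of these pumps were mostly too low to test. Of 20 other members of the ABCB, ABCC and ABCG subfamilies, 6 passed the filter, and with CLA18:2 against DMSO 3 were higher and 1 lower, where 38.8% of all tested genes were called. ABCC9, a regulatory subunit of ATP-sensitive potassium channels rather than a pump, had the largest estimate of the 4, 4.59 CPM with CLA18:2 and 1.41 CPM with DMSO (1.70 ± 0.28, adjusted p = 4.5e-06). ABCB8 and ABCB10 are mitochondrial transporters. ABCB8 was higher (84.1 and 55.9 CPM, 0.59 ± 0.05, adjusted p = 5.2e-11) and ABCB10 lower (30.6 and 38.6 CPM, -0.34 ± 0.08, adjusted p = 4.9e-04), in CLA18:2 and DMSO libraries. ABCB6, a porphyrin transporter, was higher by 1.09 ± 0.36 (adjusted p = 0.0159). Like ABCC5 and ABCC10, ABCB8 and ABCC9 were lower in RSL3+CLA18:2 than in CLA18:2, by -0.21 (adjusted p = 0.00666) and -0.80 (adjusted p = 0.0393). With RSL3+LA, LA and RSL3 edgeR called 0 of the 6, where 10.2%, 8.32% and 0.202% of all tested genes were called. At an unadjusted p under 0.05 there were 2, 1 and 0 of the 6, against 3481, 2977 and 989 of all 16325 genes. With 6 genes, these counts do not set the relatives apart from all genes.

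Enzymes that make the conjugates were called in part. Of 16 tested genes of glutathione conjugation and mercapturate formation, 9 were higher with CLA18:3 (35.9% of all tested genes called), 7 with CLA18:2 (38.8%), 5 with RSL3+LA (10.2%) and 3 with LA (8.32%) against DMSO, and none lower. With RSL3+CLA18:2, 8 were higher and 2 lower (35.2%). The share with CLA18:2 is near that of all genes. With RSL3 edgeR called 0 of the 16 (0.202%), and 2 had an unadjusted p under 0.05. MGST1, a microsomal transferase, had 63.3 CPM with CLA18:2 and 32.8 CPM with DMSO (0.95 ± 0.06, adjusted p = 3.4e-14). GSTP1, a cytosolic transferase, had 363 and 247 CPM (0.55 ± 0.04, adjusted p = 8.4e-13). GSTM3 rose by 0.69 ± 0.08, MGST3 by 0.52 ± 0.08 and GSTO1 by 0.40 ± 0.07 on the log2 scale. In RSL3+CLA18:2 against CLA18:2 edgeR called 0 of the 16 (11.9% of all genes called), with 3 at an unadjusted p under 0.05.

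The lists of glutathione supply genes and of NRF2 regulators and targets had larger changes, with medians of 0.74 and 1.18 on the log2 scale with CLA18:2. Both lists were chosen with earlier results of these data known. Of 13 supply genes, 12 were higher with CLA18:3 (none lower), 9 with RSL3+CLA18:2 and 9 with CLA18:2 (1 lower in each), 5 with RSL3+LA (1 lower), 3 with LA and 2 with RSL3. Of all tested genes, 35.9% were called in either direction with CLA18:3, 35.2% with RSL3+CLA18:2, 38.8% with CLA18:2, 10.2% with RSL3+LA, 8.32% with LA and 0.202% with RSL3, and these shares also stand beside the counts that follow. SLC7A11, the cystine importer, had 197 CPM with CLA18:2 and 18.7 CPM with DMSO (3.40 ± 0.09), GCLM, a subunit of the rate-limiting enzyme of glutathione synthesis, 240 and 74.6 CPM (1.69 ± 0.07), and GSR, which reduces oxidised glutathione, 202 and 73.2 CPM (1.46 ± 0.05). ME1, a source of NADPH, rose by 1.27 ± 0.06 and SLC3A2, the partner of SLC7A11, by 0.74 ± 0.06. Of 14 NRF2 regulators and targets, a list that also holds SLC7A11 and GCLM, 12 were higher with CLA18:3, 12 with RSL3+CLA18:2 and 12 with CLA18:2, with a median log2 fold change of 0.98 with CLA18:3 and 1.19 with RSL3+CLA18:2. HMOX1, OSGIN1, SQSTM1 and NQO1 stood at 3.57, 3.26, 2.75 and 1.16 with CLA18:2. With RSL3+LA, 7 were higher and 2 lower. With RSL3, 7 of the 14 were higher and none lower, at a median of 0.23. The changes with RSL3 were uneven: HMOX1 stood at 2.30 ± 0.11 (adjusted p = 1.3e-16) and SLC7A11 at 0.93 ± 0.10 (adjusted p = 1.4e-07). With LA, 5 were higher and 1 lower, at a median of 0.14.

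Other conjugate transporters and the factors known to act on exporter genes were called in part. Of 11 tested organic anion and conjugate transporters, 5 were higher and 1 lower with CLA18:2, where 38.8% of all tested genes were called, and 2 higher with LA, where 8.32% were. SLCO3A1, an organic anion transporter, had 28.4 CPM with LA and 29.5 CPM with CLA18:2, against 20.0 CPM with DMSO (0.50 ± 0.08 and 0.56 ± 0.08). ABCA1, the cholesterol exporter, rose with LA (0.60 ± 0.13) and CLA18:2 (0.67 ± 0.13) and was lower in RSL3+CLA18:2 than in CLA18:2 (-0.88 ± 0.13, adjusted p = 1.3e-05). ABCA2, a lipid transporter, rose with CLA18:2 by 0.41 ± 0.06 and LRRC8A, a subunit of the volume-regulated anion channel, by 0.15 ± 0.04. Of 11 tested receptors and factors, 2 were higher and 2 lower with CLA18:2, a share near that of all genes. RXRA, the partner of many nuclear receptors, was higher (0.48 ± 0.06) and SP1, which binds GC boxes, higher by 0.20 ± 0.07, while PPARD (-0.42 ± 0.05) and HIF1A (-0.29 ± 0.05) were lower. ARNT, the partner of HIF1A and the aryl hydrocarbon receptor, was at 0.09 with CLA18:2 and lower with CLA18:3 (-0.33 ± 0.10, adjusted p = 0.00752). SLCO1B3, known as a hepatic uptake transporter, was higher with CLA18:3 (0.51 ± 0.15, adjusted p = 0.00927).

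The genes with the most similar pattern were sought over the 7 group means of log2 CPM, for members whose means spanned at least 1 log2 unit, by the root mean square distance of centred profiles. ABCC2, which spanned 1.51, lay nearest to MX1 (0.137), SLC17A7 (0.146) and CASP1 (0.167). With 8 to 57 counts per library behind the ABCC2 profile, which genes come nearest to it is uncertain. ABCC3, which spanned 1.15, lay nearest to NFIA-AS2 (0.103), ID2 (0.110) and ENSG00000288806 (0.128). ABCC1, which spanned 1.39, lay nearest to KRT8P46 (0.0999), with the uncertainty given above. ABCC5, ABCC10, ABCG2 and ABCC4 spanned 0.54, 0.48, 0.46 and 0.36 and were not searched.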

How the data were processed

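The data are 28 RNA libraries of HT-1080 cells, read in pairs per the labels and forming 7 groups of 4. The deposited tables hold raw counts per gene. Per the submitters' processing notes, the authors used HISAT, SAMtools, featureCounts and DESeq2 with the build hg38; versions, annotation, strand setting and the handling of reads that match several places are not given in the sources used here. The labels write the fatty acid doses in mM and the series' design text in µM, and µM is used. Library totals ran from 16226270 to 24286824 counts, so a gene with few counts, such as ABCC2, carries a larger counting error.

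Genes were filtered with edgeR's default (minimum count 10) on the 7 groups, which left 16325 of 60286. With TMM factors, a model of group means was fitted over the 28 libraries (edgeR 4.0.16, R 4.3.3). The 12 contrasts and 2 interactions were tested by quasi-likelihood F tests with Benjamini-Hochberg adjustment over all tested genes at 0.05. The SE was taken as |log2 fold change| over √F, and intervals are at 95%. CPM were computed from each library's total times its TMM factor, and CPM per kb with the union of GENCODE exons. Positions are from GENCODE release 29 on GRCh38. The method was tested on simulated data in which far fewer genes changed than were called with CLA18:2 against DMSO. P values of the main fit set each difference against the spread between cultures of the same group. That spread was estimated for each gene over all 7 groups together, not from the compared groups alone.

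The alternatives were size factors of the DESeq2 kind (RLE), DESeq2 1.42.0, limma-voom 3.58.1, no filter, only the groups compared, the replicate number as a block, and leaving out each library of a comparison in turn. The 8 members and the lists of related genes were chosen with earlier results of these data known. From each list up to 4 genes with the smallest p in CLA18:2 against DMSO and 1 further gene with the smallest p in CLA18:3 against DMSO are named, with GCLM, SLC7A11, NQO1 and HMOX1; 1 gene that this rule picks is not reported here. Similar profiles were sought on log2 CPM with a prior count of 2, taking the 3 nearest genes. Figures were drawn with matplotlib 3.10.9 in Python 3.11.15.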

Additional observations from a re-analysis of the deposited data

Results flagged for a closer look

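In 3 of 49 combinations of a tested member and a group, 1 of the 4 libraries stood far from the others by Dixon's criterion at 95%, which chance alone gives in about 1 of 20 groups. All 3 were CLA18:2 libraries. ABCC5 had 85.6 CPM in CLA18:2 replicate 2, where the other 3 had 70.1 to 71.9 CPM. Without that library ABCC5 in CLA18:2 against DMSO was 0.47 (adjusted p = 3.1e-05). ABCC10 had 28.4 CPM in CLA18:2 replicate 4, where the other 3 had 35.6 to 36.6 CPM, and without it the difference from DMSO was 0.38 (adjusted p = 0.00240). ABCC1 had 10.6 CPM in CLA18:2 replicate 4, where the other 3 had 3.63 to 4.35 CPM, and without it the difference from DMSO was -0.12 (adjusted p = 0.860).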

How the results depend on the processing

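Over the tested members and comparisons, 1421 of 1471 alternative values kept their side of the threshold, 44 calls were lost and 6 were gained. Of the 1471, 50 differed in sign from the value reported, 0 of them a called one; ABCC1 in CLA18:2 against DMSO is an example (0.36, and -0.12 without CLA18:2 replicate 4). ABCC3 against DMSO in RSL3+CLA18:2, CLA18:2, RSL3+LA and LA, ABCC5 in CLA18:2 against DMSO and against LA, ABCC2 in CLA18:2 against LA and in RSL3+CLA18:2 against RSL3+LA, and ABCC10 in RSL3+CLA18:2 against CLA18:2 kept their calls under every alternative run. Leaving out 1 library gave counts of called members of 2 to 4 for CLA18:2 against DMSO (4 with all libraries), 1 to 2 for RSL3+CLA18:2 against DMSO (2), 0 to 3 for CLA18:3 against DMSO (2), 1 to 2 for RSL3+LA against RSL3 (2), 1 to 4 for RSL3+CLA18:2 against RSL3 (4), 1 to 2 for RSL3+CLA18:2 against CLA18:2 (2) and 2 to 3 for CLA18:2 against LA (2). CLA18:3 against DMSO called 1 member with limma-voom and 0 when only the groups compared were fitted, RSL3+CLA18:2 against RSL3 called 2 with only those groups, and RSL3+LA against RSL3 called 1 with no filter. The cause was not tested. The number of all genes called differed more than 1.5 times for RSL3 against DMSO (33, with DESeq2 70, with no filter 112 and 20 to 29 without 1 library, lowest without DMSO replicate 3), LA against DMSO (1358, with only those groups 2394), RSL3+LA against LA (8, with DESeq2 39, with no filter 164 and 4 to 9 without 1 library, 4 or 5 without RSL3+LA replicate 1, 2 or 3 or LA replicate 3 or 4) and RSL3 by LA (4, with DESeq2 29 and with no filter 132). Replicate numbers did not pair the libraries: residuals over the tested genes correlated above 0.1 in 1 of 84 pairs of libraries with the same number (median 0.00791, range -0.0997 to 0.134). With the replicate number as a block, CLA18:2 against DMSO called 3 members, ABCC2 being lost (adjusted p = 0.0583), and no other call of a member changed. Replicates of a group differed by a chi-square per degree of freedom of 2.34 to 25.9 in 42 pairs, so none was a repeat within sampling noise. ABCB1 was too low to be tested. The intervals of ABCC2, ABCG2 and ABCC1 are wide, and ABCC1 varied between replicates more than most genes of like level (percentile 98.8).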
